A study of Mus musculus with 6 samples.

Results

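Wnt signalling genes were followed in primary osteoblasts that lack the TET enzymes. The members are the 47 genes of the deposited count table, out of 16455 genes listed, whose symbols belong to the Wnt ligands, their Frizzled, Lrp5, Lrp6, Ror1 and Ror2 receptors, the R-spondins and their Lgr receptors, the secreted and membrane inhibitors, and a small set of nuclear factors and feedback targets. The rule uses symbols and no measured value, but it was set with earlier results of these data known. In TCKO cells (labelled Tet KO, triple conditional knockout) the Prx1-Cre transgene had deleted Tet1, Tet2 and Tet3, whose alleles were all floxed (fl/fl at each of the 3 genes). They were compared with WT cells, for which the labels give no further genotype. Prx1-Cre is active in early limb and skull mesenchyme, so cells of other origins in a culture can keep intact Tet genes. All cells came from mice of strain C57/B6 at an age of 3 days, were grown for 3 days and were profiled by RNA-seq with 3 libraries per genotype. The published methods, taken to apply because design and protocol match although a different series is cited there for the RNA-seq, describe digestion of the parietal bone of the skull. Neither they nor the labels say how many animals stand behind a library or whether WT mice carried floxed alleles or Cre.

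Wnt proteins are secreted, lipid-modified signals that bind Frizzled receptors together with the co-receptors Lrp5 and Lrp6 and so stabilise beta-catenin, which acts in the nucleus with factors of the TCF/LEF family. R-spondins bound to Lgr receptors raise the amount of Frizzled on the cell surface, while some Dkk proteins, secreted frizzled-related proteins and Wif1 interfere with the ligands or the co-receptors. Other Wnt proteins act through Ror receptors without beta-catenin. In bone, Wnt signalling promotes osteoblast formation and some of its inhibitors restrain it, which need not hold for each inhibitor listed here.

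The 6 libraries held between 8119261 and 10657824 counted reads, so that 1 CPM (a count scaled to library size by TMM) stood for 8.15 to 10.55 reads. Replicates 1 and 2 were closely alike within each genotype, and replicate 3 stood apart in both. Between replicates 1 and 2, 9.06% of genes in TCKO and 11.4% in WT had p under 0.05 in a chi-square test per gene. The share was 35.3% to 37.3% for pairs with replicate 3. Counting error alone gives a fraction of about 0.05 of all genes at this threshold, which is not 0.05 percent. The Tet genes do not check the labels here, because the counts cover whole genes and not only the deleted exons. Per library, Tet1 had 3.98 to 6.52 CPM in TCKO and 8.85 to 11.01 CPM in WT, Tet2 had 9.82 to 14.2 CPM in TCKO and 13.6 to 15.3 CPM in WT, and Tet3 had 57.4 to 66.3 CPM in TCKO and 41.5 to 46.3 CPM in WT. Osteoblast markers summed to 21669 to 37982 CPM in TCKO and 41441 to 44596 CPM in WT, with 4 of 8 tested lower and Spp1 higher in TCKO, and Bglap2 had 0 reads in TCKO replicates 2 and 3. Cartilage markers were abundant as well and were lower in TCKO for 11 of 11 genes, with a summed level of 1073 to 1475 CPM in TCKO and 8366 to 10154 CPM in WT. Macrophage markers summed to 165 to 554 CPM in TCKO and 433 to 759 CPM in WT. All 8 tested had a log2 fold change of TCKO over WT below 0 (median -1.07), and 1 of 8 passed as lower (Emr1). Endothelial markers summed to 1.10 to 2.95 CPM in TCKO and 2.03 to 3.60 CPM in WT, with Cdh5 and Emcn at 0 in some libraries. Muscle markers summed to 24.5 to 55.5 CPM in TCKO and 5.02 to 13.6 CPM in WT, with 1 of 2 tested higher in TCKO (Acta1). Of the tendon, suture and meninges markers, 3 of 8 tested were lower in TCKO (Tnmd, Prrx1 and Foxc1). The part of these cell types in the results below was not tested, and in such bulk RNA fewer cells of a type and less RNA per cell cannot be told apart.

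Of the 47 Wnt genes, 41 had enough reads to be tested, and 17 of these 41 (41.5%) passed at an edgeR adjusted p under 0.05, compared with 18.3% of all 13630 genes tested. Inhibitors, R-spondin components and Frizzled receptors made up most of the falls, and 2 ligands, 2 receptors and Axin2 made up the rises. In all, 5 members were higher in TCKO, where 9.44% of all genes were, and 12 were lower, where 8.9% of all genes were. With the additional demand of a fold above 2, which 6.07% of all genes met, 1 member was higher (3.01% of all genes) and 8 were lower (3.06% of all genes). The median log2 fold change of TCKO over WT was -0.47 over the 41 members, with 16 above 0 and 25 below 0, and -0.0011 over all genes. The values of the genotypes did not overlap for 22 of the 41 members (53.7%, against 38.2% of all genes). Summed over the 47 members, TCKO libraries held 1193 to 1453 CPM and WT libraries 1684 to 2006 CPM, a sum to which Dkk3 contributed most.

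**Figure D1:**
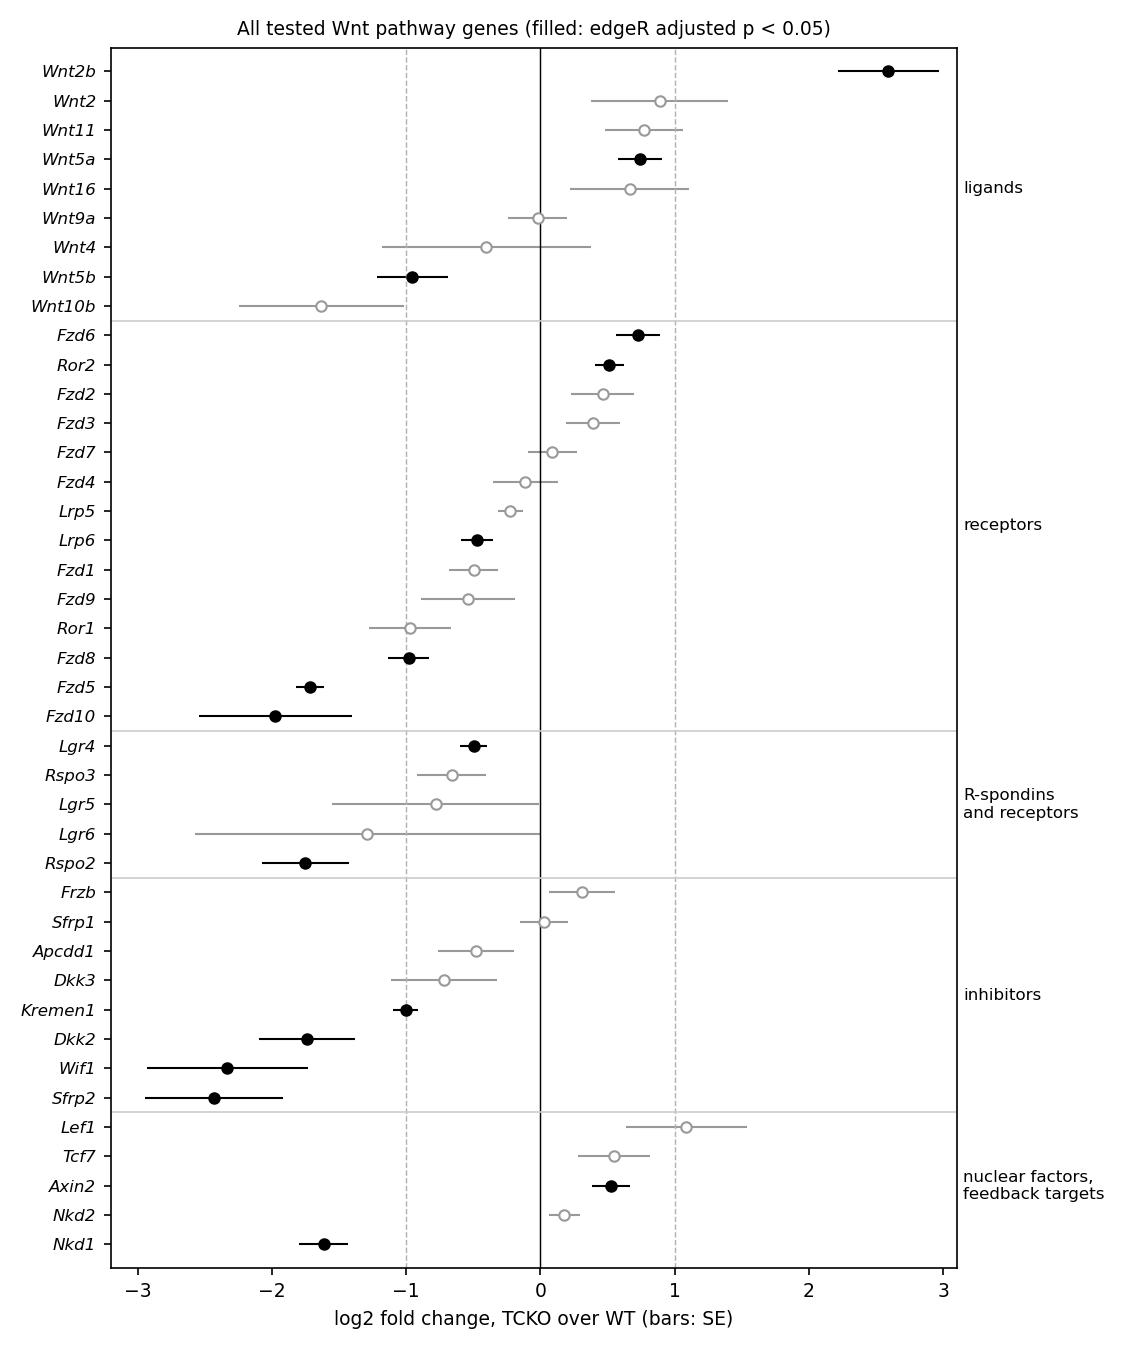
The log2 fold change of TCKO over WT (x axis) is plotted for each of the 41 tested members, grouped by role, with bars for the standard error. Filled points passed at an edgeR adjusted p under 0.05: 5 lie right of 0 and 12 left of it, and all 4 filled inhibitors lie on the left.

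These counts depended on how closely similar libraries were treated. With replicates 1 and 2 of each genotype summed into 1 library, 3 members passed, all lower, namely Fzd5 (edgeR adjusted p = 0.0148), Kremen1 (0.0281) and Nkd1 (0.0397). With the replicate number as a block, 8 were higher and 16 lower. With replicate 3 of both genotypes left out, a choice made after the data were seen, 9 were higher and 22 lower. These counts take in Sostdc1, which was too low for the test on all libraries but passed as lower in that fit (edgeR adjusted p = 4.13e-08) and without TCKO replicate 1 (0.0384), 2 (0.0382) or 3 (0.0165) or WT replicate 3 (0.00195). With 1 library left out the number higher was 3, 2 and 5 without TCKO replicate 1, 2 or 3 and 2, 1 and 6 without WT replicate 1, 2 or 3, and the number lower was 8, 6 and 10 and then 6, 5 and 15 in the same order. Calls over all genes moved too, from 1287 higher and 1213 lower of 13630 tested with all libraries. They were 197 and 156 of 14472 when summed and 1729 and 1623 of 13630 with the block. Without replicate 3 of both genotypes they were 3243 and 3128 of 13751. With 1 library left out they ran from 612 to 1702 and from 578 to 1611. Of the 17 calls, 6 were kept with any single library left out: Wnt2b, Fzd5, Fzd8, Rspo2, Kremen1 and Nkd1. Each of the 17 differed in the same direction within replicates 1 and 2 and within replicate 3. This adds no support, because the genotypes of all 17 did not overlap, which fixes the direction in both.

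The promoters of members with a large change are shown first, because TET enzymes act on cytosines followed by guanine (CG) and DNA methylation itself was not analysed here. They belong to the genes with the largest fold change among members that passed, reached 5 CPM in the higher genotype and have an entry in the RefSeq promoter table (assembly GRCm38.p6, 250 bases before to 50 after the start of transcription). CG pairs are in capitals and each window is read 5′ to 3′ on the gene's own strand. Wnt2b, which rose, is at chr3:104961660-104961959 on the minus strand. Sfrp2 (chr3:83766071-83766370, plus strand), Dkk2 (chr3:132085042-132085341, plus strand) and Fzd5 (chr1:64737701-64738000, minus strand) fell. The Sfrp2 window lies inside the gene span given below, which begins at 83765750, so it is not upstream of that span.
Wnt2b: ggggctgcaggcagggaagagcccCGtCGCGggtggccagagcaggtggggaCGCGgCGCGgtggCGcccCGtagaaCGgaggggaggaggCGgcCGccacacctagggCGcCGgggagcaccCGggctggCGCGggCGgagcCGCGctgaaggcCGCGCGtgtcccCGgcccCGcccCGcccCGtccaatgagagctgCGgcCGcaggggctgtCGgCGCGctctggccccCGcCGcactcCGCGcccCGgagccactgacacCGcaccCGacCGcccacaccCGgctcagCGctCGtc
Sfrp2: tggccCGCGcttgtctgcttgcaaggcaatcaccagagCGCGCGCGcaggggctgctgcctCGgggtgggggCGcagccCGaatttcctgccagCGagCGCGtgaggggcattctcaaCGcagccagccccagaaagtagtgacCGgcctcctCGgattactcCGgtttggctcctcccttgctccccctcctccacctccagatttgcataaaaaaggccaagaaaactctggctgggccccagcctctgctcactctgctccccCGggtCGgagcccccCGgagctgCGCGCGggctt
Dkk2: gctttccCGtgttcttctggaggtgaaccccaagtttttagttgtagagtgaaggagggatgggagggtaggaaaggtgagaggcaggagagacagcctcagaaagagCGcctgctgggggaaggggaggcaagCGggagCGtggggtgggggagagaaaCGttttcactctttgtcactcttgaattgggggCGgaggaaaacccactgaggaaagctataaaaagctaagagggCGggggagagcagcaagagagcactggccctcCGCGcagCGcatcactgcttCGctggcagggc
Fzd5: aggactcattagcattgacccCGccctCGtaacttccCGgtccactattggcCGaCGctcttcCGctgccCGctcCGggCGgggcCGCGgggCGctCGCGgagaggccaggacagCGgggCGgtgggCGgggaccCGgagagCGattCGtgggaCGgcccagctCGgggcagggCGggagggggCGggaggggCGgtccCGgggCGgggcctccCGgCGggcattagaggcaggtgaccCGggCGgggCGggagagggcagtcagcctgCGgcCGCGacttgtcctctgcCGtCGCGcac
The Wnt2b window held 43 CG pairs, the Fzd5 window 38, the Sfrp2 window 22 and the Dkk2 window 11. The gene that rose and 1 of the genes that fell thus had the more CG-rich windows of the 4. Over the 36 windows of the 29 members with an entry the median was 23.5 CG pairs, compared with 7 over all 32851 windows of the table (quartiles 3 and 20). All windows together cover 27025 genes, including genes not tested here, and some members gave several windows. A comparison with the tested genes alone was not made. A TCF/LEF core (CTTTGAA and also CTTTGAT, as well as CTTTGTT and likewise CTTTGTA, on either strand) was present in 5 of the 36 windows (13.9%, against 16.9% of all windows), and none of the 4 windows shown had a match. A RUNX core (TGTGGT and likewise TGCGGT, on either strand) was present in 6 of the 36 (16.7%, against 22.4% of all windows), and the Wnt2b window held 1 match. The motifs of a set share most of their letters, and a match describes only the letters of a window.

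Among the ligands, Wnt2b and Wnt5a rose in TCKO cells and Wnt5b fell, while 6 of the 9 tested did not pass. The 10 listed ligands summed to 120 to 152 CPM in TCKO libraries and 94.97 to 115 CPM in WT libraries. Wnt2b, a ligand of the beta-catenin branch (Entrez 22414, chromosome 3, 104944805 to 104961709), had 5.97, 6.87 and 3.09 CPM in TCKO replicates 1 to 3, against 0.805, 0.948 and 0.837 CPM in WT. The lowest TCKO library was thus well above the highest WT library, although the WT values rest on only 7 to 10 reads each. Wnt2b was 6.03-fold higher, the largest rise among the 41 tested members (log2 fold change 2.59 ± 0.38, SE, n = 3 per genotype, edgeR adjusted p = 0.00299). The difference was 2.74 within replicates 1 and 2 and 1.77 within replicate 3, and with replicates 1 and 2 summed the adjusted p was 0.0699.

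Wnt5a is the ligand best known for signalling through Ror receptors (Entrez 22418, chromosome 14, 28504543 to 28527448), and it was the most abundant ligand of the TCKO libraries in CPM. It had 57.4, 50.7 and 79.2 CPM in TCKO, against 39.4, 35.3 and 37.6 CPM in WT. All TCKO libraries were above all WT libraries, with TCKO replicate 3 the highest, and the log2 fold change was 0.74 ± 0.16 (edgeR adjusted p = 0.0186). The call was lost without WT replicate 1 (0.0591), without WT replicate 2 (0.0809) and with replicates 1 and 2 summed (0.107). An antisense gene, Gm2670, overlaps its exons, and without strand information their reads cannot be told apart, so the value is uncertain. Its relative Wnt5b had 2.21, 2.45 and 1.44 CPM in TCKO, against 4.14, 3.98 and 3.71 CPM in WT. Wnt5b thus fell where Wnt5a rose (log2 fold change -0.96 ± 0.26, edgeR adjusted p = 0.0402). The Wnt5b call was lost without TCKO replicate 1 (0.0968), 2 (0.0696) or 3 (0.0650), without WT replicate 1 (0.131) or 2 (0.128), with replicates 1 and 2 summed (0.228) and in DESeq2 (0.0902).

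The other ligands had large spreads or small differences. Wnt9a, the most abundant ligand per kb of exon (10.4 ± 3.22 CPM per kb in TCKO and 10.6 ± 0.401 in WT), had 40.4, 41.4 and 22.3 CPM in TCKO and 36.1, 35.7 and 33.6 CPM in WT. TCKO replicate 3 was the low library, and the log2 fold change was -0.02 ± 0.22 (edgeR adjusted p = 0.958). Wnt2 had 10.1, 8.84 and 27.5 CPM in TCKO and 6.67, 6.54 and 12.1 CPM in WT, so that replicate 3 was high in both genotypes. The rise of 0.89 ± 0.51 on the log2 scale missed the threshold (edgeR adjusted p = 0.282) but passed with the block (0.0174) and without replicate 3 of both genotypes (0.0144), and its size was 0.18 without TCKO replicate 3. Wnt10b, which promotes bone formation in mice, was likewise high in replicate 3, with 1.77, 1.35 and 5.97 CPM in TCKO and 6.44, 6.82 and 15.4 CPM in WT. The genotypes of Wnt10b did not overlap, and the edgeR adjusted p was 0.118 for a log2 fold change of -1.63 ± 0.61. It passed with the block (0.00191), in DESeq2 (0.0140) and without TCKO replicate 3 (0.0176). Wnt11 had 2.99, 3.56 and 4.53 CPM in TCKO and 2.30, 1.61 and 2.63 CPM in WT, again without overlap and without passing (0.77 ± 0.29, edgeR adjusted p = 0.103). Wnt16 (0.67 ± 0.44) and Wnt4 (-0.40 ± 0.78) also did not pass.

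**Figure D2:**
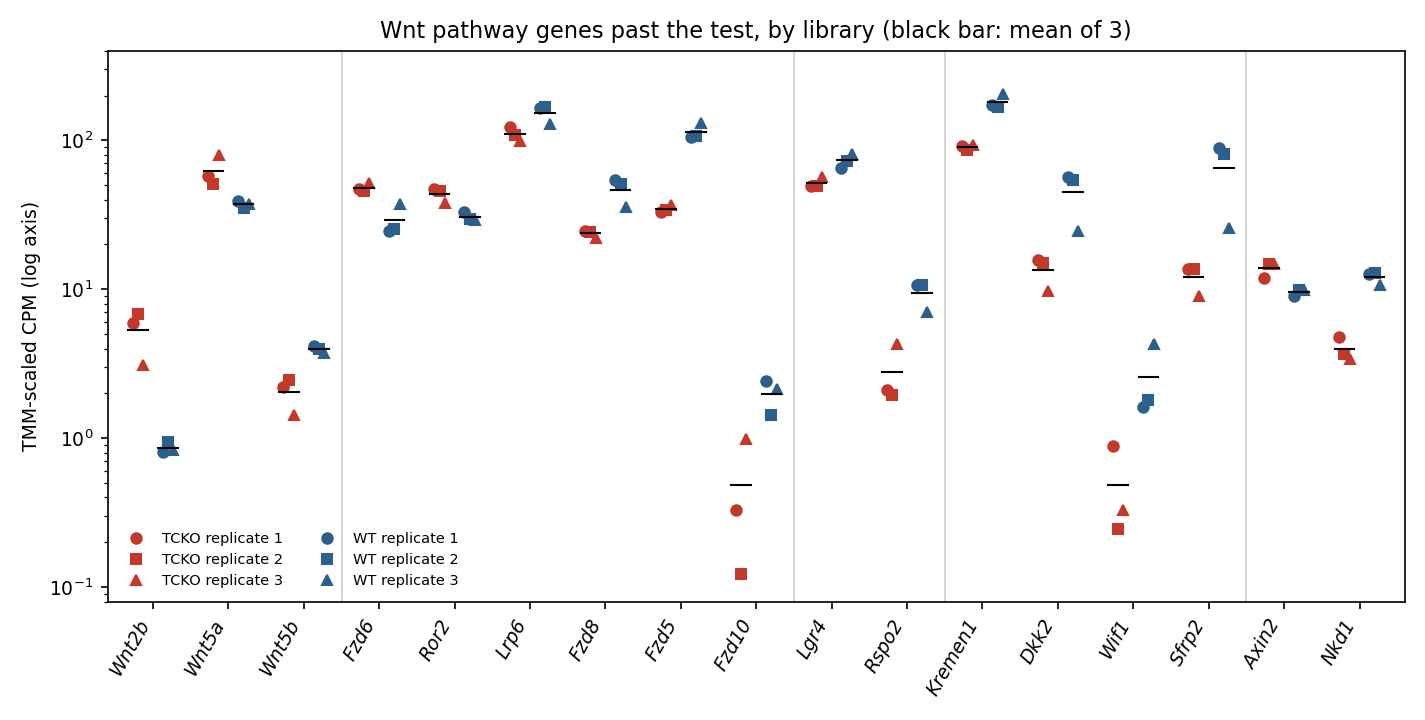
TMM-scaled CPM on a log axis for the 17 members that passed, by library, with TCKO in red left of WT in blue and a black bar at the mean of 3 libraries. Grey lines separate ligands, receptors, R-spondin components, inhibitors and feedback targets; no red point lies between the blue points of its gene, and replicate 3 (triangles) departs from replicates 1 and 2 for Dkk2, Sfrp2 and Rspo2.

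The Frizzled receptors shifted relative to each other. Of the 10 Frizzled genes, all tested, Fzd5, Fzd8 and Fzd10 fell, Fzd6 rose and 6 did not pass. Fzd5 (Entrez 14367, chromosome 1, 64730558 to 64737750) had 33.3, 34.1 and 36.9 CPM in TCKO, against 106, 107 and 131 CPM in WT. The libraries of each genotype lay close together and far from the other genotype, and Fzd5 was 3.29-fold lower in TCKO (log2 fold change -1.72 ± 0.11, edgeR adjusted p = 9.13e-05). This was the smallest adjusted p among the 41 tested members and passed in all 13 alternative fits. A transcript of unknown type, Gm38058, lies on the opposite strand over Fzd5 exons, so a part of these reads is uncertain. Fzd8, the closest relative of Fzd5, had 24.8, 24.2 and 22.2 CPM in TCKO, against 53.8, 50.7 and 35.8 CPM in WT. WT replicate 3 was the nearest to the TCKO libraries but still above them (log2 fold change -0.98 ± 0.15, edgeR adjusted p = 0.0045), and with replicates 1 and 2 summed the adjusted p was 0.0953. Fzd10 was near the limit of detection, with 3, 1 and 9 reads in TCKO and 21, 15 and 18 reads in WT. Its log2 fold change was -1.97 ± 0.57 (edgeR adjusted p = 0.0463) and -3.01 without TCKO replicate 3. The Fzd10 call was lost without TCKO replicate 1 (0.153) or 2 (0.127), without WT replicate 1 (0.155), 2 (0.0870) or 3 (0.0683) and with replicates 1 and 2 summed (0.237).

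In the other direction, Fzd6, a receptor used in planar polarity, had 47.2, 45.4 and 52.0 CPM in TCKO, against 24.6, 25.6 and 37.4 CPM in WT. All TCKO libraries were above the highest WT library, which was replicate 3 (log2 fold change 0.73 ± 0.16, edgeR adjusted p = 0.0190). The adjusted p was 0.0601 and 0.0505 without TCKO replicate 1 or 2, 0.0735 and 0.0821 without WT replicate 1 or 2, and 0.183 with replicates 1 and 2 summed. An opposite-strand transcript, Gm26704, overlaps Fzd6 as well. Fzd1 had 117, 125 and 74.5 CPM in TCKO and 158, 149 and 139 CPM in WT, without overlap, and did not pass (-0.49 ± 0.18, edgeR adjusted p = 0.107), whereas it did with the block (0.0302) and without TCKO replicate 3 (0.0307). Fzd2 had 119, 124 and 72.1 CPM in TCKO and 88.2, 80.5 and 59.8 CPM in WT, with replicate 3 low in both genotypes. The difference of 0.46 ± 0.24 had an edgeR adjusted p of 0.229, and passed with the block (0.00755) and without TCKO replicate 3 (0.0213). Fzd7 had 67.1, 67.2 and 106 CPM in TCKO and 81.9, 72.1 and 72.1 CPM in WT, so that the TCKO libraries lay on both sides of WT (0.09 ± 0.18, edgeR adjusted p = 0.779). Fzd3 (0.39 ± 0.20), Fzd4 (-0.11 ± 0.24) and Fzd9 (-0.54 ± 0.35) did not pass.

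Per kb of exon the order of the Frizzled genes differed between the genotypes by their means. In TCKO, Fzd2 stood at 28.7 ± 7.81 CPM per kb (SD, n = 3), Fzd1 at 25.1 ± 6.47, Fzd7 at 17.7 ± 4.91, Fzd6 at 10.0 ± 0.712, Fzd5 at 5.03 ± 0.274 and Fzd8 at 3.97 ± 0.224. In WT, Fzd1 stood at 35.4 ± 2.28 CPM per kb, Fzd2 at 20.8 ± 4.001, Fzd7 at 16.6 ± 1.25, Fzd5 at 16.5 ± 2.11, Fzd8 at 7.83 ± 1.61 and Fzd6 at 6.06 ± 1.48. Fzd2, Fzd1 and Fzd7 were neighbours in TCKO that lay within their spread of each other, as did Fzd7 and Fzd5, and Fzd8 and Fzd6, in WT. Fzd5 was close to Fzd7 in WT and below Fzd6 in TCKO. Fzd3, Fzd9, Fzd4 and Fzd10 were between 0.149 and 1.45 CPM per kb in TCKO and between 0.614 and 1.10 CPM per kb in WT.

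**Figure D3:**
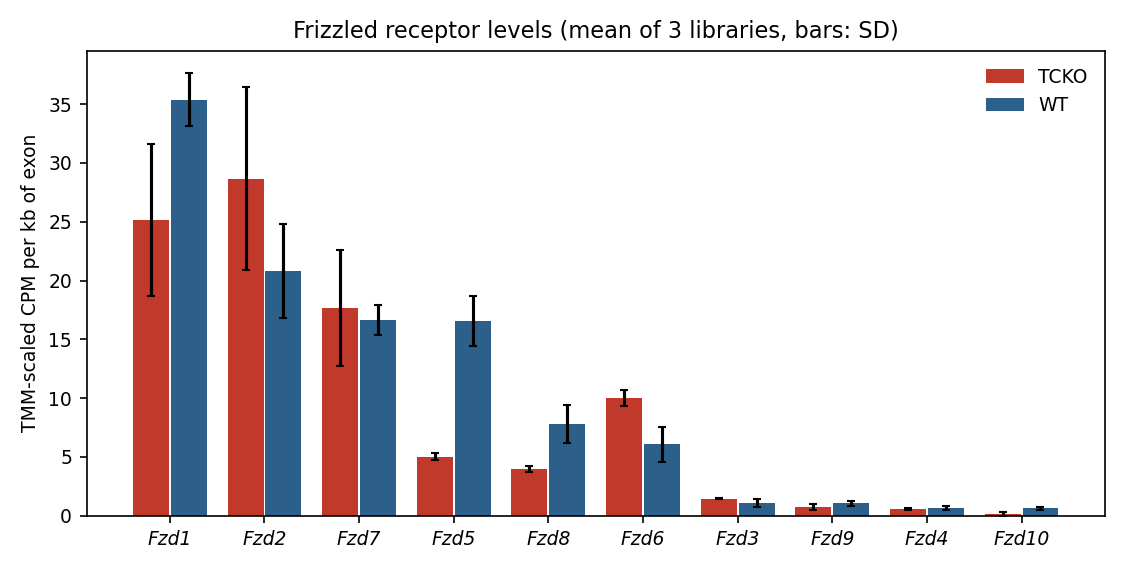
Mean level per kb of exon (y axis, TMM-scaled CPM per kb, starting at 0) of the 10 Frizzled genes in TCKO (red) and WT (blue), with bars for the SD over 3 libraries. Fzd5 stands at 5.03 in TCKO and 16.5 in WT, whereas Fzd6 stands at 10.0 in TCKO and 6.06 in WT.

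Among the co-receptors and Ror receptors, Lrp6 fell, Ror2 rose, and Lrp5 and Ror1 did not pass. Lrp6, the co-receptor of the beta-catenin branch (Entrez 16974, chromosome 6, 134446476 to 134566913), had 124, 109 and 99.3 CPM in TCKO, against 165, 167 and 128 CPM in WT. The highest TCKO library was just below the lowest WT library, and Lrp6 fell by 0.47 ± 0.12 on the log2 scale (edgeR adjusted p = 0.0327). The Lrp6 call was lost without TCKO replicate 2 (0.108) or 3 (0.0592), without WT replicate 1 (0.122) or 2 (0.125) and with replicates 1 and 2 summed (0.237). Lrp5, its relative and a known regulator of bone mass, had 71.9, 70.8 and 68.7 CPM in TCKO and 91.3, 82.4 and 73.1 CPM in WT. The Lrp5 values did not overlap, but the log2 fold change of -0.22 ± 0.09 passed only without WT replicate 3 or without replicate 3 of both genotypes (edgeR adjusted p = 0.129 with all libraries, 0.0246 and 0.000524 in those fits). Ror2, a receptor for Wnt5a, had 46.9, 45.8 and 37.9 CPM in TCKO, against 32.9, 29.5 and 29.1 CPM in WT. It rose by 0.51 ± 0.11 on the log2 scale without overlap (edgeR adjusted p = 0.0142), with adjusted p = 0.0624 and 0.0603 without TCKO replicate 1 or 2, 0.0696 without WT replicate 2 and 0.162 with replicates 1 and 2 summed. Ror1 had 2.76, 2.21 and 1.77 CPM in TCKO and 5.52, 4.74 and 2.99 CPM in WT, also without overlap. The difference of -0.97 ± 0.30 narrowly missed the threshold (edgeR adjusted p = 0.0606), and it passed with the block (0.0242) and without WT replicate 3 (0.0183).

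Both R-spondin components that passed were lower. Rspo2, a secreted enhancer of Wnt signalling (Entrez 239405, chromosome 15, 43020788 to 43171594), had 2.10, 1.96 and 4.31 CPM in TCKO, against 10.7, 10.6 and 7.06 CPM in WT. Replicate 3 was the TCKO library with the highest and the WT library with the lowest value, and the ranges still did not meet. Rspo2 was 3.37-fold lower (log2 fold change -1.75 ± 0.32, edgeR adjusted p = 0.00876), with a difference of -2.33 within replicates 1 and 2 and -0.70 within replicate 3. With replicates 1 and 2 summed the adjusted p was 0.147. Lgr4, the R-spondin receptor that was the most abundant of the 3 Lgr genes per kb, had 49.8, 49.2 and 56.7 CPM in TCKO, against 65.7, 72.9 and 81.3 CPM in WT. It fell by 0.50 ± 0.10 on the log2 scale without overlap (edgeR adjusted p = 0.0126), and the call was lost without TCKO replicate 1 (0.0579) or 2 (0.0592), without WT replicate 2 (0.0524) and with replicates 1 and 2 summed (0.134).

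Rspo3, Lgr6 and Lgr5 depended on replicate 3. Rspo3, a further R-spondin, had 18.0, 17.3 and 19.6 CPM in TCKO and 34.1, 35.1 and 17.2 CPM in WT, so that WT replicate 3 was the lowest of all 6 libraries. Its log2 fold change was -0.66 ± 0.26 (edgeR adjusted p = 0.123) and the adjusted p without WT replicate 3 was 0.000852. The antisense gene Gm48159 overlaps Rspo3 exons. Lgr6 had 3.54, 3.19 and 12.2 CPM in TCKO and 2.64, 2.46 and 42.1 CPM in WT, and its log2 difference was 0.38 within replicates 1 and 2 and -1.78 within replicate 3 (edgeR adjusted p = 0.541). The fitted value was -1.29 ± 1.28 with all libraries and 1.31 without WT replicate 3. Lgr5, a stem cell marker in other tissues, had 2.54, 4.42 and 1.10 CPM in TCKO and 6.21, 6.63 and 0.718 CPM in WT (edgeR adjusted p = 0.530), again with replicate 3 apart in both genotypes.

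Every inhibitor that passed was lower in TCKO. Of the 12 inhibitors listed, 8 were tested, and Sfrp2, Wif1, Dkk2 and Kremen1 fell while Dkk3, Apcdd1, Frzb and Sfrp1 did not pass. These 4 falls were 50% of the 8, where 8.9% of all genes tested were lower. Frzb and Sfrp1 had log2 fold changes above 0. Of the 4 calls, only that of Kremen1 was kept with any single library left out. The 12 together summed to 287 to 518 CPM in TCKO libraries and 633 to 902 CPM in WT libraries, beside the fall of the cartilage markers in the same libraries given above. The largest part of that sum was Dkk3, which was grouped with the inhibitors by its symbol and did not pass. Dkk3 had 151 to 375 CPM in TCKO and 349 to 573 CPM in WT. Sfrp2, which binds Wnt proteins outside the cell (Entrez 20319, chromosome 3, 83765750 to 83774314), had 13.7, 13.7 and 9.06 CPM in TCKO, against 89.0, 81.2 and 25.8 CPM in WT. WT replicate 3 was far below the other WT libraries but above all TCKO libraries. Sfrp2 was 5.39-fold lower, the largest fall among the 41 tested members (log2 fold change -2.43 ± 0.51, edgeR adjusted p = 0.0274). The call was lost without TCKO replicate 1 (0.0807), 2 (0.0781) or 3 (0.0943), without WT replicate 1 (0.0719) or 2 (0.0748) and with replicates 1 and 2 summed (0.168). The antisense gene Gm26771 overlaps Sfrp2 exons, so a part of the reads is uncertain.

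Dkk2, a secreted ligand of Lrp6 (Entrez 56811, chromosome 3, 132085266 to 132180304), had 15.7, 15.1 and 9.72 CPM in TCKO, against 56.4, 54.0 and 24.5 CPM in WT. As for Sfrp2, replicate 3 was low in both genotypes and the genotypes did not overlap (3.34-fold lower, log2 fold change -1.74 ± 0.36, edgeR adjusted p = 0.0211). The difference was -1.84 within replicates 1 and 2 and -1.33 within replicate 3. The Dkk2 call was lost without TCKO replicate 1 (0.0601), 2 (0.0661) or 3 (0.0604), without WT replicate 1 (0.0656) or 2 (0.0714) and with replicates 1 and 2 summed (0.163). Kremen1, a membrane receptor for Dkk proteins (Entrez 84035, chromosome 11, 5191551 to 5261713), had 91.8, 85.8 and 92.5 CPM in TCKO, against 172, 167 and 204 CPM in WT. The libraries within a genotype were close to each other, and Kremen1 was 2.01-fold lower (log2 fold change -1.005 ± 0.092, edgeR adjusted p = 0.000407), a call kept in all 13 alternative fits. Wif1, Wnt inhibitory factor, had few reads, with 8, 2 and 3 reads in TCKO and 14, 19 and 36 reads in WT. Its log2 fold change was -2.33 ± 0.60 (edgeR adjusted p = 0.0311), with -3.07 without TCKO replicate 1 and -1.53 without replicate 3 of both genotypes. Leaving out TCKO replicate 2 (0.106) or 3 (0.0647) or WT replicate 1 (0.0513) or 2 (0.0609), or summing replicates 1 and 2 (0.122), ended the Wif1 call.

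Dkk3, a divergent Dkk family member, was the most abundant member per kb in both genotypes, at 89.2 ± 38.3 CPM per kb in TCKO and 147 ± 36.9 in WT. It had 373, 375 and 151 CPM in TCKO and 554, 573 and 349 CPM in WT, so that WT replicate 3 fell below TCKO replicates 1 and 2. The difference of -0.72 ± 0.39 missed the threshold in edgeR (adjusted p = 0.269). It was -0.59 when only replicates 1 and 2 were compared and -1.21 for replicate 3. With the block Dkk3 passed (0.00929). Sfrp1, a close relative of Sfrp2, had 15.1, 15.8 and 10.1 CPM in TCKO and 13.9, 12.8 and 13.5 CPM in WT, a difference of 0.03 ± 0.18 on the log2 scale (edgeR adjusted p = 0.934). Frzb (0.31 ± 0.25) and Apcdd1 (-0.48 ± 0.28) had 2.76 to 6.67 CPM in every library and did not pass. Whether Sfrp2 differed from Sfrp1 in its response was not tested.

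The feedback targets Axin2 and Nkd1 moved in opposite directions. Axin2, a scaffold of the beta-catenin destruction complex and a common readout of the pathway (Entrez 12006, chromosome 11, 108917828 to 108950783), had 11.9, 14.7 and 14.8 CPM in TCKO, against 8.96, 9.86 and 9.93 CPM in WT. All TCKO libraries were above all WT libraries (1.44-fold higher, log2 fold change 0.53 ± 0.14, edgeR adjusted p = 0.0362). The Axin2 call was lost without TCKO replicate 2 (0.127) or 3 (0.0648), without WT replicate 1 (0.132) or 2 (0.108), with replicates 1 and 2 summed (0.207) and in DESeq2 (0.0739), and the antisense gene Gm11670 overlaps its exons. Nkd1, an inhibitor of Dishevelled that Wnt signalling induces (Entrez 93960, chromosome 8, 88521342 to 88594887), had 4.75, 3.68 and 3.42 CPM in TCKO, against 12.8, 12.9 and 10.8 CPM in WT. The genotypes were well apart, and Nkd1 was 3.06-fold lower (log2 fold change -1.61 ± 0.18, edgeR adjusted p = 0.00105), a call kept in all 13 alternative fits. Its relative Nkd2 had 30.5, 28.5 and 34.6 CPM in TCKO and 24.7, 27.9 and 30.1 CPM in WT (0.18 ± 0.11, edgeR adjusted p = 0.319).

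The nuclear factors Lef1 and Tcf7 did not pass. Lef1 had 1.33, 3.68 and 3.31 CPM in TCKO and 0.805, 1.71 and 1.32 CPM in WT, with TCKO replicate 1 within the WT range (1.09 ± 0.45, edgeR adjusted p = 0.136, and 0.0370 under the replicate block). Tcf7 had 6.19, 7.49 and 7.95 CPM in TCKO and 3.45, 4.45 and 6.94 CPM in WT, where WT replicate 3 was above TCKO replicate 1. Its log2 fold change was 0.55 ± 0.27 (edgeR adjusted p = 0.195), with 0.0293 without WT replicate 3.

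A further 6 members had too few reads to be tested: Dkk1, Sostdc1, Sfrp4, Notum, Rspo1 and Wnt10a. Sostdc1, an inhibitor that binds Lrp6, had 1, 0 and 0 reads in TCKO, against 24, 21 and 6 reads in WT. WT libraries thus held 51 of the 52 reads, and the ratio of WT over TCKO was 48.5 (8.32 to 1952 by a 95% interval for counting error alone). With no filter on low counts Sostdc1 passed as lower in TCKO (edgeR adjusted p = 0.00689). Dkk1, the best known Lrp6 antagonist in bone, ran the other way, with 1, 3 and 9 reads in TCKO and 0 in each WT library. Against a floor of 3 reads over the WT group this was 4.56-fold higher. That value leaves out the counting error of the TCKO reads, most of which came from replicate 3, so it is not a lower bound. Without the filter Dkk1 did not pass (edgeR adjusted p = 0.0788). Sfrp4 had 5, 7 and 3 reads in TCKO and 7, 12 and 20 reads in WT, and Rspo1 had 5, 4 and 5 reads in TCKO and 6, 12 and 9 reads in WT. Notum had 10, 4 and 27 reads in TCKO and 5, 4 and 15 reads in WT, and Wnt10a had 7, 0 and 4 reads in TCKO and 1, 1 and 5 reads in WT. None of these 4 passed without the filter (edgeR adjusted p = 0.156 to 0.713).

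The difference within replicates 1 and 2 was set beside that within replicate 3 for each member. The sign was the same for 33 of the 41 tested members and for each of the 17 that passed. For the 17 it could not differ, because their genotypes did not overlap. Lgr6, Lgr5, Rspo3, Apcdd1, Fzd7, Fzd4, Sfrp1 and Wnt9a were the members whose sign differed. How often the sign agreed over all genes was not counted. With replicate 3 of both genotypes left out, 13 more of these 41 members passed and no call was lost. Over all genes, that fit called 3243 higher and 3128 lower of 13751 tested. With all libraries, 1287 were higher and 1213 lower of 13630. The 13 included Rspo3 (edgeR adjusted p = 7.57e-13), Dkk3 (3.18e-20), Fzd2 (1.12e-11) and Fzd1 (2.79e-07). That fit rests on 2 closely similar libraries per genotype, so its p-values measure an especially small spread. The labels name no separate animals or cultures for any library, so all p-values measure only the spread between these libraries, which may be technical.

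**Figure D4:**
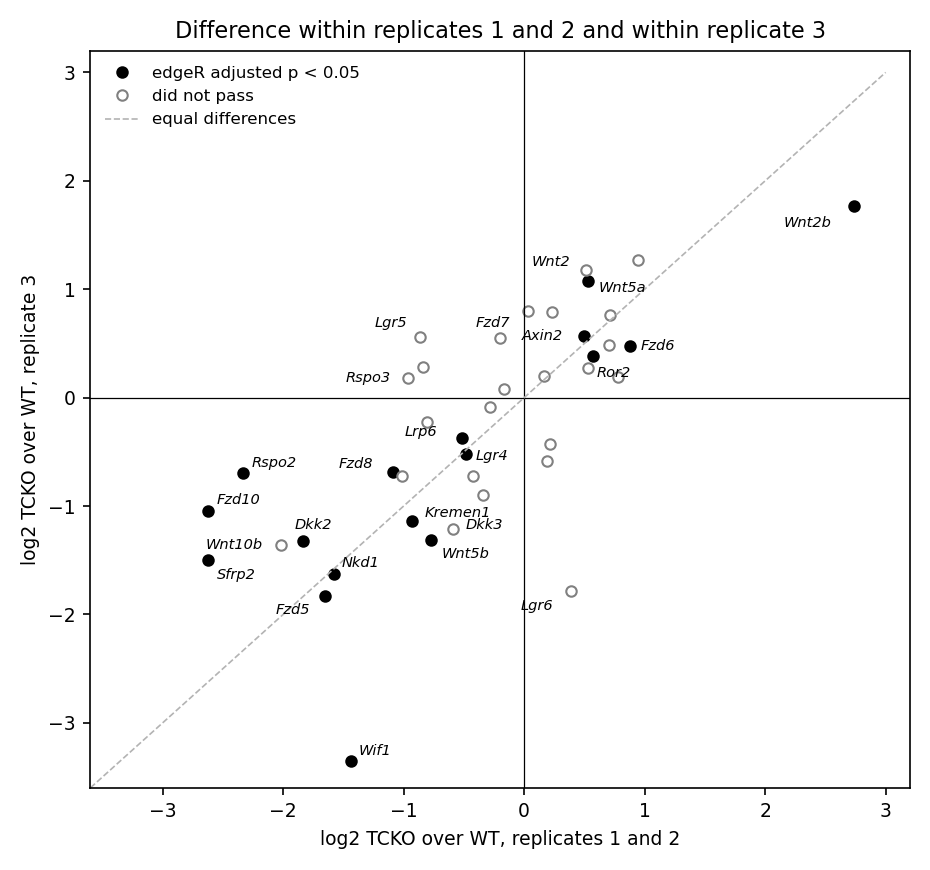
Log2 difference of TCKO over WT for the 41 tested members within replicates 1 and 2 (x axis) and within replicate 3 (y axis), each with 0.1 CPM added. Filled points passed at an edgeR adjusted p under 0.05 and lie at the lower left or upper right, and the dashed line marks equal differences. Lgr6, Lgr5, Rspo3 and Fzd7 lie at the upper left or lower right, where the direction differed.

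Outside the members, 57 further Wnt pathway genes of a chosen list were listed in the table, and 14 of the 54 tested (25.9%) passed, 5 higher and 9 lower in TCKO, with a median log2 fold change of -0.05. Over all genes tested, 18.3% passed, 9.44% higher and 8.9% lower. Of the cytoplasmic machinery 1 of 16 genes passed (6.25%): Csnk1e, a casein kinase, was higher (0.58 ± 0.10, edgeR adjusted p = 0.00513). Ctnnb1, which encodes beta-catenin, had 719 to 860 CPM in TCKO and 669 to 792 CPM in WT, a difference of 0.10 ± 0.10 on the log2 scale (edgeR adjusted p = 0.536). For the secretion of Wnt proteins, Porcn, which attaches their lipid, was lower (-0.65 ± 0.16, edgeR adjusted p = 0.0283), and Wls, their carrier, did not pass (0.20 ± 0.16). At the membrane, Lrp4 (-1.32 ± 0.20) and Ptk7 (-0.57 ± 0.11) were lower and Gpc4 was higher (0.63 ± 0.15), with edgeR adjusted p between 0.00462 and 0.0282. Of the nuclear factors, Tcf7l1 was lower (-0.43 ± 0.10), and Bcl9 (0.51 ± 0.09) and Tle3 (0.47 ± 0.11) were higher. The planar polarity genes Prickle1 (-0.67 ± 0.18) and Prickle2 (-0.87 ± 0.14) were lower.

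Genes known as targets of the pathway in other settings did not share a direction. Of 11 tested, 3 were lower, 1 was higher and 7 did not pass. Ccnd1, which encodes cyclin D1, had 190.4, 189.96 and 256 CPM in TCKO, against 939, 904 and 542 CPM in WT. The genotypes of Ccnd1 did not overlap (3.75-fold lower, log2 fold change -1.91 ± 0.24, edgeR adjusted p = 0.00294). Tnfrsf19 (-1.59 ± 0.20) and Wisp2 (-1.71 ± 0.37) were also lower, and Bambi, a TGF-beta pseudoreceptor, was higher (0.80 ± 0.18). Myc had 99.5, 105 and 106 CPM in TCKO and 74.2, 69.6 and 99.5 CPM in WT and did not pass (0.35 ± 0.13, edgeR adjusted p = 0.100). For these further genes the alternative fits were not run gene by gene.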

How the data were processed

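Raw read counts per gene for 3 TCKO and 3 WT libraries were deposited by the authors, from TruSeq RNA libraries aligned to GRCm38. The submitters' processing notes name HISAT2 and the published methods STAR; neither the counting program nor its use of strand is given in the sources used here. No listed gene had fewer than 10 reads in total. Columns of the authors' normalized means, fold changes, p-values and FDR were not used.

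Differences in counts were tested with edgeR 4.0.16 (R 4.3.3). Genes were filtered by filterByExpr with genotype as the group (13630 of 16455 kept), scaled by TMM and tested with the robust quasi-likelihood model (glmQLFit, glmQLFTest; genotype as the only term; 2-sided; Benjamini-Hochberg over all genes tested; threshold 0.05). The standard error is the log2 fold change divided by the square root of F. CPM per kb used the union exon length of GENCODE annotation of GRCm38, and coordinates are 1-based in GRCm38.p6 (RefSeq). Alternatives were DESeq2 1.42.0 size factors and test, limma 3.58.1 voom, no filter, a replicate block, each library left out, replicates 1 and 2 summed and, added after the data were seen, replicate 3 left out. The tests were run on simulated counts drawn independently for each library. Such counts lack the likeness of replicates 1 and 2, so they cannot show how the tests behave under it. Every member is named, and those that passed are given by library. The members and lists were chosen with earlier results of these data known.

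Replicate numbers come from the sample titles. Deviations from the group means correlated within numbers 1, 2 and 3 at 0.192, 0.195 and 0.333, and the block took the numbers to pair the libraries. Such deviations cancel out within a genotype, so these correlations are not separate evidence, and they match only replicate 3. TCKO 1 with WT 2 reached 0.246 and TCKO 2 with WT 1 reached 0.18, so numbers 1 and 2 were not told apart, while replicate 3 against other numbers gave -0.234 to -0.284. Replicates 1 and 2 of a genotype differed beyond counting error, but far less than either did from replicate 3. The mean chi-square per gene was 2.52 in TCKO and 1.77 in WT, against 15.7 to 22.8 for pairs with replicate 3. Replicates 1 and 2 were kept as separate libraries. At 8119261 to 10657824 reads per library, genes of a few reads give imprecise ratios.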

Additional observations from a re-analysis of the deposited data

How the results depend on the processing

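Over the 41 tested members and 13 alternatives, 432 fits kept direction and call, 60 lost the call, 27 gained it and 13 changed sign, and DESeq2 gave no adjusted p for Lgr6. The 5 members higher became 8 under the replicate block, 0 with replicates 1 and 2 summed, 9 without replicate 3 of both genotypes and 1 to 6 with a library left out. The 12 lower became 3 with replicates 1 and 2 summed, 22 without replicate 3 of both genotypes and 5 to 15 with a library left out, and 16 under the block, which adds 7 calls and loses none. Sostdc1, untested with all libraries, is counted where a fit kept it. Over all genes, 1287 higher and 1213 lower became 197 and 156 when summed and 1729 and 1623 under the block. They became 3243 and 3128 without replicate 3 of both genotypes, and 612 to 1702 and 578 to 1611 with a library left out. Signs changed for 6 members, none of which passed with all libraries: with a library left out Fzd4 ran between -0.28 and 0.052, Fzd7 between -0.16 and 0.20, Lgr6 between -2.19 and 1.31, Wnt4 between -1.61 and 0.38, Wnt9a between -0.16 and 0.22 and Sfrp1 between -0.086 and 0.21. Without replicate 3 of both genotypes Fzd7 was at -0.19 and passed there (edgeR adjusted p = 0.0236), Lgr6 at 0.41 and Wnt9a at 0.19, and Sfrp1 was at -0.0014 in limma-voom and -0.054 when summed. The summed fit has fewer libraries; other causes were not tested. Depth limits Fzd10, Wif1 and the 6 untested members.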
